A study of Mus musculus with 6 samples.

Results

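The genes of autophagy and of lysosomal acidification were followed in hippocampal astrocytes of the mouse after ablation of microglia. Members were taken by symbol: every row starting Atp6v0, Atp6v1 or Atg followed by a number, Atp6ap1 and Atp6ap2, and 22 further named genes of the pathway. This gave 64 rows of the 24421 in the tables, of which 63 are genes and 1 is a processed pseudogene, Atp6v0c-ps2. Of the 22 further names, 21 were listed, and Rubcn was found only under an older symbol and was therefore not counted. The astrocytes came from adult male Siglech dtr/dtr mice on the C57BL/6 strain, in which the Siglech locus, active in microglia, drives the receptor for diphtheria toxin (DT). Mice of both groups carried this allele and received either PBS or DT at 50 μg/kg into the peritoneum 2 days before sampling. Each group comprised 3 libraries from separate experiments, and each library pooled 2 mice. Cells bearing CD11b were depleted and astrocytes were then taken by magnetic sorting (MACS) for astrocyte cell surface antigen-2. Mice given DT without the allele were not analysed here.

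In macroautophagy, a membrane cup closes around cytoplasm or organelles to form an autophagosome, which then fuses with a lysosome. A kinase complex and a lipid kinase complex start the cup, and conjugation enzymes attach the small Atg8 proteins (LC3 and GABARAP) to its membrane. The vacuolar ATPase (V-ATPase) acidifies the lysosome: its V1 sector outside the membrane hydrolyses ATP, and its V0 sector inside the membrane carries protons through a turning ring. Astrocytes use these lysosomes to digest what they take up, as well as their own components.

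Libraries held 21704891 to 32933975 reads on genes. Levels within a gene are given as CPM or TPM, and levels between genes only as TPM, which are scaled per transcript length. Tests were run with limma on log2(CPM + 0.1) over 15137 genes with a mean of at least 0.5 CPM, two-sided, with Benjamini-Hochberg adjustment. An adjusted p-value below 0.05 was reached by 0.555% of the genes tested with DT higher and by 0.159% with DT lower. The 12 astrocyte markers summed to 64270 to 69288 CPM in the PBS libraries and to 67054 to 74728 CPM in the DT libraries, and Gfap rose by 1.93 on the log2 scale (adjusted p = 8.20e-05). The 12 microglial markers summed to 257 to 293 CPM after PBS and to 146 to 168 CPM after DT, and 7 of them fell. The 8 markers of border-associated macrophages summed to 38.8 to 59.6 CPM and 96.7 to 111 CPM, respectively, and 3 of them rose. The 8 choroid plexus markers varied from 47.5 to 859 CPM among the PBS libraries and from 538 to 1499 CPM among the DT libraries, and the 8 ependymal markers lay at 246 to 294 CPM and 321 to 523 CPM. The summed neuronal, oligodendrocyte and pericyte markers overlapped between the groups. Endothelial markers (707 to 1113 CPM after PBS, 595 to 709 CPM after DT) overlapped only at the ends of their ranges. So did oligodendrocyte precursor markers (260.5 to 367.5 CPM after PBS, 207.2 to 260.9 CPM after DT). None of the markers on these lists was at 0 in every library. In these bulk samples, fewer cells of a type and less RNA per cell cannot be told apart.

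Of the 64 members, 58 passed the minimum of 0.5 CPM, and 0 of the 58 passed the threshold in either direction, against 0.713% of all genes tested. With unadjusted p-values below 0.05, Lamp2 and Atp6v0c were higher (5.91% of all genes were) and Rab7 was lower (4.51%), which makes 3 of 58 members, where the share over all genes was 10.4%. The count of members past the adjusted threshold was also 0 with the edgeR quasi-likelihood test, with the edgeR exact test and with DESeq2 on the recovered reads, and with unadjusted p-values below 0.05 these tools gave 2, 3 and 1 members. The CPM of the groups did not overlap for 6 members, higher in Lamp2 and Atg2b and lower in Atp6v0a1, Atg14, Pik3c3 and Atg4c. Over all genes, 16.3% had groups that did not overlap, 8.75% with DT higher and 7.57% with DT lower.

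The members were abundant, and their fold changes were small. The median member was at 65.0 TPM in the PBS-treated group and at 65.5 TPM in the DT-treated group, and 55 of 58 members had a mean of over 10 TPM. The median log2 fold change was -0.02 for the members and -0.01 for all genes tested, and the median absolute log2 fold change was 0.06 and 0.11, respectively. For 53 of 58 members the 95% interval of the fold change lay within 1.5-fold in either direction, as it did for 66.6% of all genes. Neither comparison with all genes was matched for level, and the median gene tested was at 22.1 TPM after PBS. The 5 members with wider intervals were Atp6v0c, its pseudogene, Rab7, Atg9b and Atg4a. A fitted value above 0 was seen for 19 members and a value below 0 for 39, where 51.3% of all genes were below 0, and 10 and 22 of them kept that sign in every alternative setting that tested them.

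**Figure D1:**
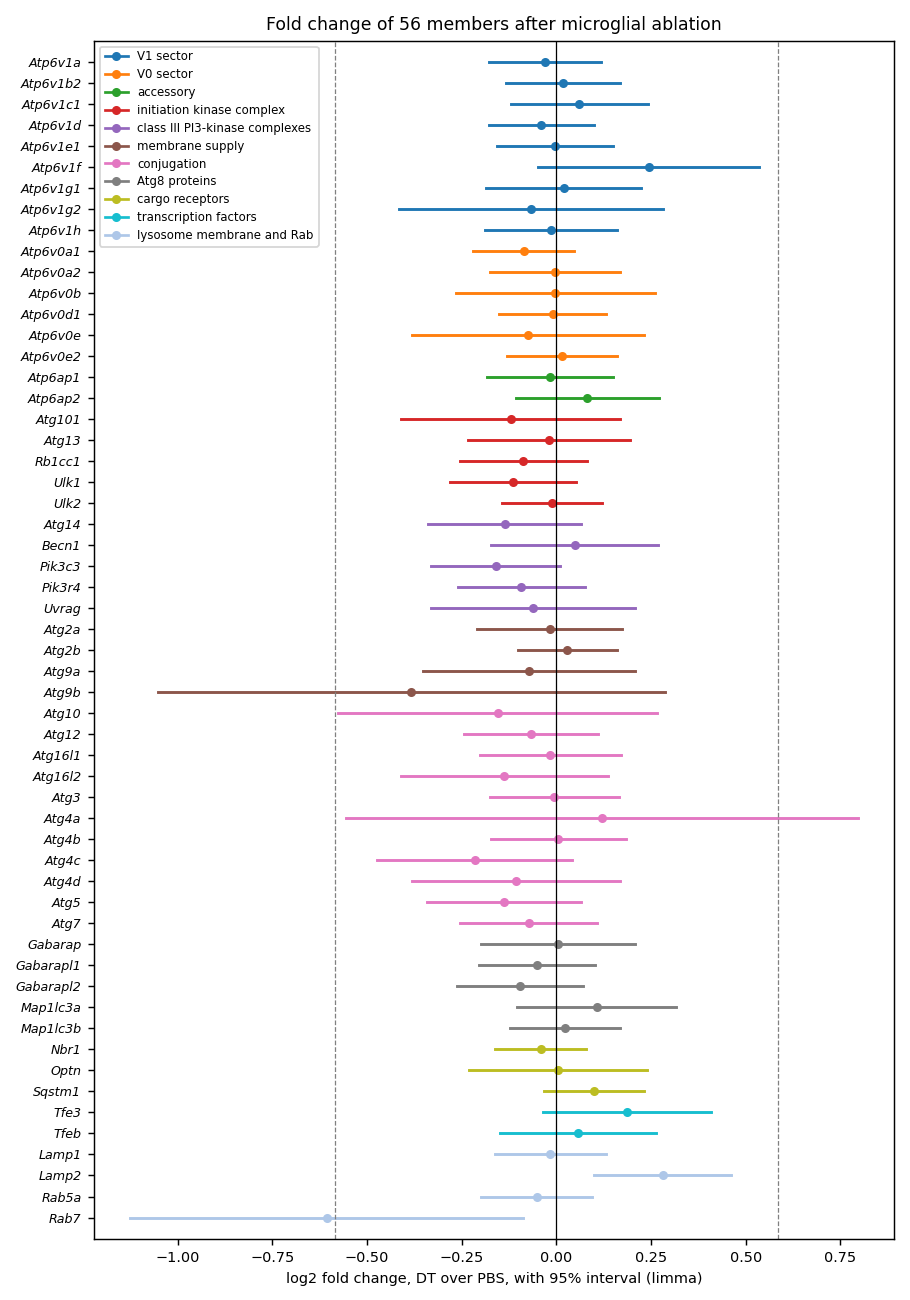
Log2 fold change of the DT-treated over the PBS-treated group (x axis) for 56 members by role, with 95% intervals from limma, where the dashed lines mark 1.5-fold and the rows Atp6v0c and Atp6v0c-ps2 are not drawn. Most intervals span 0 and stay inside the dashed lines, while Lamp2 lies above 0, Rab7 lies below 0 and Atg9b, Atg4a and Rab7 reach past the lines.

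The V1 sector was measured through 13 genes, 9 of which passed the minimum. The summed V1 level was 1055, 1067 and 1123 TPM in the PBS libraries and 1103, 1133 and 1119 TPM in the DT libraries, so that the groups overlapped. Atp6v1a, which encodes the catalytic A subunit (chr16:44085402-44139705, minus strand, mm10), was at 94.1, 91.0 and 84.2 TPM after PBS and at 85.7, 91.2 and 89.0 TPM after DT. Its log2 fold change was -0.03 (95% interval -0.18 to 0.12, adjusted p = 0.914). Atp6v1b2, the B subunit found in most tissues, was at 70.8, 69.4 and 67.6 TPM and at 72.0, 68.8 and 71.5 TPM, respectively. Its groups overlapped too, with a log2 difference of 0.02 (adjusted p = 0.955).

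The most abundant V1 transcript was Atp6v1e1, a subunit of the peripheral stalks, with 225, 230.2 and 256 TPM after PBS and 226, 247 and 242 TPM after DT. The V1 gene with the smallest p-value was Atp6v1f, a subunit of the central rotor, with 148, 177 and 215 TPM in the PBS libraries and 219, 198 and 221 TPM in the DT libraries. The 2 lowest values of Atp6v1f were PBS libraries, the remaining PBS library lay among the DT libraries, and the log2 fold change was 0.24 (SE 0.13, 95% interval -0.05 to 0.54, adjusted p = 0.555). The 9 fitted V1 values ranged from -0.07 to 0.24, with 4 above and 5 below 0, of which 2 and 1 kept their sign in every alternative.

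**Figure D2:**
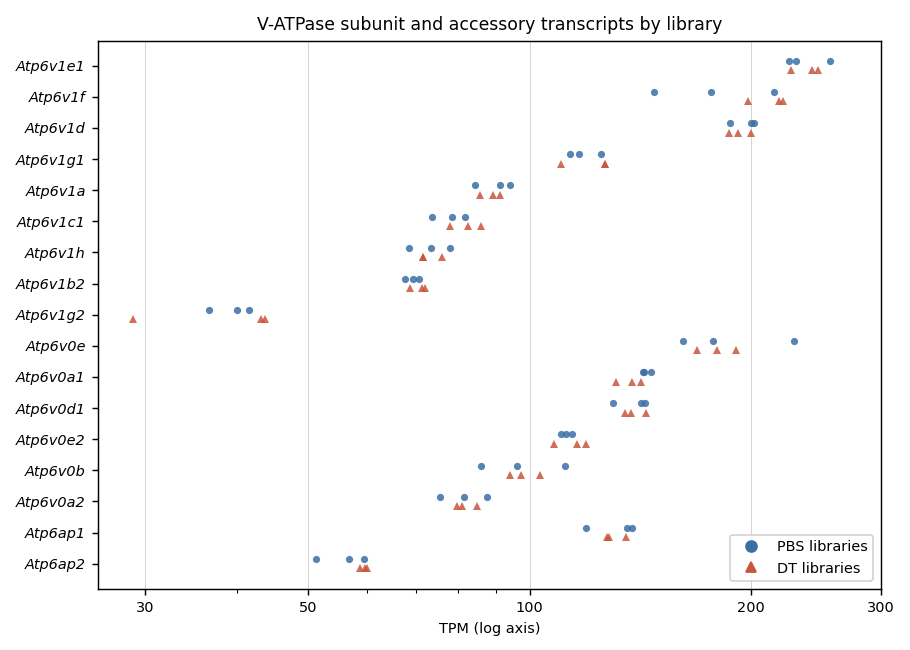
TPM of 17 V-ATPase subunit and accessory genes in each library (log axis), with PBS libraries as circles and DT libraries as triangles. Groups overlap in each row but Atp6v0a1, whose DT libraries lie below its PBS libraries.

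V-ATPase subunits with several isoforms were each supplied in an unequal mix, and this mix was close in both groups. Atp6v0a1, the a subunit isoform that is most abundant in brain, made up 63.8% ± 1.504 (SD, n = 3) of the a subunit TPM after PBS and 62.5% ± 0.998 (SD, n = 3) after DT, with Atp6v0a2 at 36.1% and 37.4%. Atp6v0a1 itself was at 146, 142.5 and 143 TPM in the PBS libraries and at 138, 142 and 131 TPM in the DT libraries, and each DT library lay below each PBS library, with a log2 difference of -0.09 (adjusted p = 0.663). For the G subunit, Atp6v1g1 made up 75.0% ± 1.57 and 75.9% ± 5.003 (SD, n = 3 each), and Atp6v1g2, the neuronal form, made up 25.0% and 24.1%. The Atp6v1g2 share was lowest in DT replicate 1 (18.6%) and highest in DT replicate 3 (28.4%). These libraries also had the lowest and the highest summed neuronal markers (518 and 1014 CPM), while the PBS libraries did not follow that order. The part of neuronal RNA in this share was not tested. Atp6v0e made up 62.5% ± 3.72 of the e subunit TPM after PBS and 61.1% ± 2.46 after DT (SD, n = 3 each), and the rest was Atp6v0e2. The B, C, E and d subunits came almost wholly from 1 gene each, with Atp6v1b2, Atp6v1c1, Atp6v1e1 and Atp6v0d1 at 99.5% or more in both groups.

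The isoforms known from kidney, epididymis, bone or testis were at or near 0. Atp6v0a4 had 0 to 20 reads per library, Atp6v1c2 had 0 to 10 and Atp6v1e2 had 0 to 6. Atp6v1b1 had 4 reads in 1 PBS library and Atp6v0d2 had 4 reads in 1 DT library, and both had 0 reads elsewhere. Atp6v1g3 had 0 reads in 6 of 6 libraries, which allows a level of up to 0.0904 to 0.138 CPM per library for counting error only. These 6 members were under the minimum of 0.5 CPM and were not tested in the main fit.

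The V0 sector without the c subunit summed to 818, 752 and 720.2 TPM after PBS and to 759, 745 and 745 TPM after DT. The DT libraries lay within the range of the PBS libraries. Its most abundant gene by mean, Atp6v0e, a small membrane subunit, was at 228, 178 and 162 TPM and at 191, 169 and 179.6 TPM, with a log2 fold change of -0.08 (95% interval -0.38 to 0.23). Among the accessory genes, Atp6ap1, a luminal glycoprotein that helps assemble V0, was at 138, 136 and 119 TPM after PBS and at 128, 135 and 128 TPM after DT. Atp6ap2, also called the prorenin receptor, had a fitted log2 value of 0.08 (adjusted p = 0.780). Over the 15 tested V1 and V0 genes other than the c subunit, 15 of 15 intervals stayed within 1.5-fold.

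Atp6v0c encodes the c subunit that forms most of the proton ring, and it lies on the minus strand of chr17:24163866-24169702 (mm10). Its processed pseudogene Atp6v0c-ps2, an intronless copy that GENCODE places at chr6:37806086-37806550 on the plus strand, shares 464 of the 465 coding bases with Atp6v0c. The single difference is T111C, counted from 1 at the A of the start codon, with the Atp6v0c base first. Coding bases 66 to 156 around it are shown 5′ to 3′ because reads of these rows can be told apart only there within the coding sequence, and the capital marks the differing base.
Atp6v0c: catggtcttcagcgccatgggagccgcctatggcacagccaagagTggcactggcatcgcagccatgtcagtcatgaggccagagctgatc
Atp6v0c-ps2: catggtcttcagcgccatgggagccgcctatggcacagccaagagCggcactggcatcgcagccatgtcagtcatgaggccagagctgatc

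The row of Atp6v0c was at 2.76, 26.4 and 2.66 CPM in the PBS libraries and at 97.2, 23.5 and 32.7 CPM in the DT libraries. The row of Atp6v0c-ps2 was at 88.4, 0.030 and 81.5 CPM in the PBS libraries and at 0.087, 65.0 and 0.044 CPM in the DT libraries. In PBS replicate 1, Atp6v0c-ps2 had 227 TPM at 88.4 CPM and Atp6v0c had 6.89 TPM at 2.76 CPM, which are similar ratios. Both rows thus appear to have been scaled by similar lengths, although the GENCODE copy has 465 bases and the Atp6v0c transcript 1183. Bases outside the coding sequence were not compared. Atp6v0c-ps2 was high in PBS replicates 1 and 3 and in DT replicate 2 and near 0 in the other libraries, and Atp6v0c was lowest in PBS replicates 1 and 3, while DT replicate 2 had 23.5 CPM of Atp6v0c beside 65.0 CPM of the pseudogene. Atp6v0c took 3.03%, 99.9% and 3.17% of the CPM of both rows after PBS and 99.9%, 26.6% and 99.9% after DT, so that libraries of each group fell on either side. The sum of the pair was 91.1, 26.5 and 84.1 CPM after PBS and 97.3, 88.5 and 32.8 CPM after DT, and 1 PBS library and 1 DT library lay well below the other 4.

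The fitted log2 fold change of Atp6v0c was 2.83 (SE 0.86, 95% interval 0.87 to 4.78, adjusted p = 0.297) and that of Atp6v0c-ps2 was -3.02 (SE 2.91, adjusted p = 0.773). With the rows summed, a choice made after their values had been seen, the log2 fold change was 0.16 (SE 0.53, 95% interval -1.04 to 1.36, adjusted p = 0.950). Without the second PBS library, Atp6v0c alone passed the threshold, at 3.91 (adjusted p = 0.0316). Values of either row are therefore uncertain as levels of a gene.

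**Figure D3:**
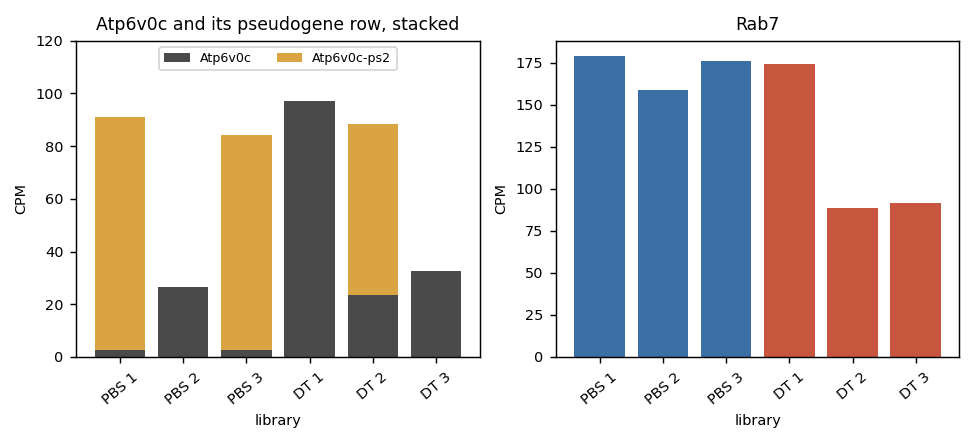
CPM in each of the 6 libraries, with the bars of Atp6v0c and Atp6v0c-ps2 stacked on the left and Rab7 on the right (blue, PBS; red, DT). The share of the Atp6v0c and Atp6v0c-ps2 rows differs between libraries of the same group, and Rab7 stands at 159 to 179.2 CPM in 4 libraries and at 88.7 and 91.4 CPM in 2 DT libraries.

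Autophagy is started by the kinases Ulk1 and Ulk2 with their partners Rb1cc1 (FIP200), Atg13 and Atg101. Ulk1 was at 27.8, 29.6 and 27.7 TPM in the PBS libraries and at 27.5, 25.4 and 26.3 TPM in the DT libraries. The 3 DT values were the lowest in TPM but their CPM overlapped with PBS, and the log2 fold change was -0.11 (SE 0.07, adjusted p = 0.642). Ulk2 was the more abundant kinase transcript, with 59.9, 64.0 and 58.4 TPM after PBS and 58.4, 61.6 and 62.5 TPM after DT. Ulk2 contributed 68.2% of the TPM of both kinases after PBS and 69.7% after DT. The 5 genes of the complex had fitted values from -0.12 to -0.01, all below 0, but only 3 of 5 stayed below 0 in every alternative (Ulk2 and Atg13 did not), and 0 of 5 passed the threshold.

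The lipid kinase Vps34, encoded by Pik3c3, makes the phosphatidylinositol 3-phosphate that marks the growing cup. Pik3c3 was at 42.0, 40.7 and 42.3 TPM after PBS and at 38.9, 38.1 and 36.0 TPM after DT. Its DT libraries were all below its PBS libraries, with a log2 fold change of -0.16 (SE 0.07, 95% interval -0.33 to 0.01, adjusted p = 0.510). Atg14, which directs the kinase to the site of autophagosome formation, was at 18.3, 20.2 and 19.3 TPM and at 18.3, 17.0 and 17.7 TPM. The groups did not overlap, though the nearest values were close, and the log2 fold change was -0.14 (SE 0.09, adjusted p = 0.645). Becn1, the regulatory scaffold of the complex, was at 63.5, 76.3 and 69.7 TPM after PBS and at 64.5, 82.9 and 72.0 TPM after DT. The Becn1 groups overlapped, at a log2 fold change of 0.05 (95% interval -0.17 to 0.27, adjusted p = 0.900). The kinase's partner Pik3r4 (-0.09) and Uvrag (-0.06), which acts in its late endosomal form, had adjusted p-values of 0.718 and 0.899. Rubcn, which restrains that form, was listed under the older symbol 1700021K19Rik at 23.8, 25.6 and 25.8 TPM after PBS and 27.4, 25.2 and 24.03 TPM after DT.

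Membrane for the cup is supplied by vesicles with the scramblase Atg9a and by the lipid transfer proteins Atg2a and Atg2b. Atg9a was at 49.1, 37.2 and 38.7 TPM in the PBS libraries and at 35.7, 40.8 and 42.9 TPM in the DT libraries. The highest and the lowest Atg9a value thus came from a PBS and a DT library, and the log2 fold change was -0.07 (adjusted p = 0.884). Atg2a and Atg2b were near each other in level, with Atg2a at 53.1% of their sum after PBS and 52.3% after DT. Atg2b was at 22.7 TPM after PBS and 23.4 TPM after DT on average, with no overlap in CPM but a log2 fold change of only 0.03 (adjusted p = 0.899). Atg9b was the scarcest tested member, with 20 to 49 reads per library, and its log2 fold change of -0.38 had a 95% interval of -1.05 to 0.29.

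Among the 11 conjugation genes, the most abundant was Atg3, the enzyme that transfers LC3 to lipid. Atg3 was at 66.9, 68.4 and 74.4 TPM after PBS and at 71.5, 72.1 and 67.1 TPM after DT, with a log2 difference of -0.01 (adjusted p = 0.984). The Atg4 proteases, which prepare LC3 and release it again, were represented by 4 genes. Atg4c was at 21.2, 20.95 and 23.0 TPM in the PBS libraries and at 15.9, 20.1 and 20.7 TPM in the DT libraries. Its groups did not overlap, yet the first DT library lay farther from the other DT libraries than these lay from PBS, and the log2 fold change was -0.21 (SE 0.11, 95% interval -0.47 to 0.04, adjusted p = 0.555). Atg4b made up 40.7% of the Atg4 TPM after PBS and 43.2% after DT, Atg4c 29.1% and 26.5%, Atg4d 24.7% and 24.1%, and Atg4a 5.46% and 6.17%. Atg5, part of the ligase for LC3, had a fitted log2 value of -0.14 (adjusted p = 0.645), and Atg7, its activating enzyme, had one of -0.07 (adjusted p = 0.800). Of the 11 genes, 9 had fitted values below 0, 7 of them in every alternative, and 10 had intervals within 1.5-fold. Their median was -0.07, and 0 of 11 passed the threshold.

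**Figure D4:**
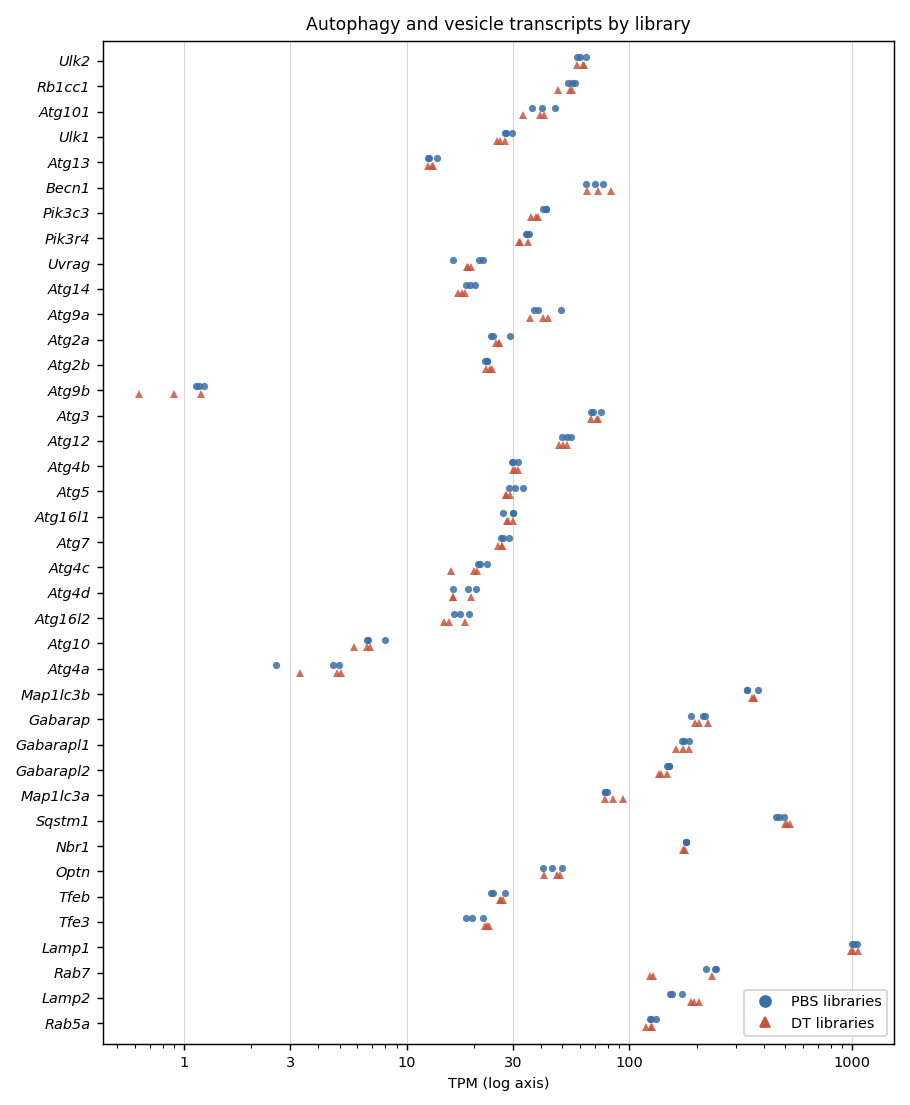
TPM of the autophagy members in each library (log axis), from the initiation kinases at the top to the lysosome membrane and Rab genes at the bottom, with PBS libraries as circles and DT libraries as triangles. Lamp1 is the highest row and Atg9b and Atg4a are the lowest, and Rab7 has 2 DT libraries at 123 and 127 TPM and the other 4 libraries at 221 to 243 TPM.

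The 5 Atg8 proteins, which coat the autophagosome and bind cargo receptors, summed to 960.2, 952 and 978 TPM after PBS and to 975, 946 and 985 TPM after DT. Map1lc3b (LC3B), whose product is the usual marker of autophagosomes, was the most abundant of them, with 338, 337 and 379 TPM and 356, 362 and 361 TPM. Its DT libraries lay within the PBS range, with a log2 fold change of 0.02 (95% interval -0.12 to 0.17). Map1lc3b made up 36.5% ± 2.03 of the summed TPM after PBS and 37.2% ± 0.99 after DT (SD, n = 3 each). Gabarap followed with 21.5% and 21.6%, Gabarapl2 held 15.5% and 14.5%, and Gabarapl1 lay between them. Map1lc3a (LC3A) was the least abundant, at 78.0, 79.2 and 77.8 TPM after PBS and at 84.5, 77.8 and 93.5 TPM after DT. In TPM, DT replicates 1 and 3 of Map1lc3a lay above the PBS range and DT replicate 2 lay within it. The log2 fold change was 0.11 (95% interval -0.10 to 0.32, adjusted p = 0.739).

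Sqstm1 (p62), the receptor that brings ubiquitinated cargo to LC3, was at 456, 468 and 496 TPM in the PBS libraries and at 512, 498 and 523 TPM in the DT libraries. The groups did not overlap in TPM but overlapped in CPM, and the log2 fold change was 0.10 (SE 0.06, 95% interval -0.03 to 0.23, adjusted p = 0.607). The related receptor Nbr1 was at 179.0 TPM after PBS and 175.4 TPM after DT on average. Optn, a receptor used for damaged mitochondria, had a fitted log2 value of 0.00 (adjusted p = 0.991).

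The transcription factors Tfeb and Tfe3 drive many genes of lysosomes and autophagy once they enter the nucleus, so their transcript level alone does not give their activity. Tfeb was at 24.4, 27.7 and 23.98 TPM after PBS and at 26.1, 26.5 and 27.1 TPM after DT, with a log2 fold change of 0.06 (95% interval -0.15 to 0.26, adjusted p = 0.871). Tfe3 was at 19.7, 21.9 and 18.4 TPM in the PBS libraries and at 23.5, 22.4 and 23.0 TPM in the DT libraries. The DT values of Tfe3 were the higher ones in TPM with overlap in CPM, and the log2 fold change was 0.19 (SE 0.10, 95% interval -0.03 to 0.41, adjusted p = 0.550).

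These factors are known to bind E-box motifs in promoters of lysosomal genes, of which CACGTG is the core and TCACGTGA is a longer form that contains it. These palindromes, which read alike on both strands, were sought in the RefSeq promoter windows (GRCm38.p6, 250 bases before to 50 after the start), which matched 51 of the 64 members. CACGTG was found in 10 of them, or 19.6%, where 8.09% of all genes held it. TCACGTGA was found in 5, or 9.8%, against 1.12% of all genes, and these were Atg3, Atp6v0d1, Atp6v0e, Atp6v1a and Rab5a. All genes here means the 27025 with a promoter window, whether or not they were expressed in these libraries. Genes of like level were not compared. The windows of Lamp1 (chr8:13159095-13159156, plus strand), Atp6v1a (chr16:44139368-44139407, minus strand), Atg3 (chr16:45158741-45158780, plus strand) and Rab5a (chr17:53479122-53479161, plus strand) are shown 5′ to 3′ to set these letters beside the levels of the same genes, with the motif in capitals.
Lamp1: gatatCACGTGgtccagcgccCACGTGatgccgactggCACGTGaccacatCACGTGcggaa
Atp6v1a: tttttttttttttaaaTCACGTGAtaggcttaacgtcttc
Atg3: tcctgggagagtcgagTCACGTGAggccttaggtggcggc
Rab5a: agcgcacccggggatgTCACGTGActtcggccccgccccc
The Lamp1 window holds 4 copies of CACGTG. The log2 fold changes of these genes were -0.02 for Lamp1, -0.03 for Atp6v1a, -0.01 for Atg3 and -0.05 for Rab5a. They were picked for several copies (Lamp1) or for a TCACGTGA copy wholly before the RefSeq start. For Atp6v1a the GENCODE span given above begins upstream of that start, so its window lies inside the span. The other members with CACGTG were at -0.14 (Atg5), -0.14 (Atg14), -0.08 (Atp6v0e), -0.07 (Atg7), -0.01 (Atp6v0d1) and -0.002 (Atp6v0b). All 10 were below 0, as were 39 of 58 members, and 0 of the 10 passed the threshold. Of the 10, Atg3, Atp6v0b, Atp6v0d1, Atp6v0e, Atp6v1a and Lamp1 changed sign in some alternatives.

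Lamp1, a glycoprotein that lines the lysosomal membrane, was the most abundant member. It was at 1048, 1019 and 1002 TPM after PBS and at 1067, 1013 and 983 TPM after DT, with 16771 to 25594 reads per library behind each value. The groups overlapped, and the 95% interval of the log2 fold change ran from -0.16 to 0.13.

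Lamp2, its partner, which also serves fusion with autophagosomes and chaperone-mediated autophagy (chrX:38401357-38456454, minus strand, mm10), had the smallest p-value of the members. Lamp2 was at 173, 152 and 155 TPM in the PBS libraries and at 205, 194 and 189.5 TPM in the DT libraries. Each DT library exceeded each PBS library, from a mean of 159.9 ± 11.3 TPM to 196 ± 7.93 TPM (SD, n = 3 each). The log2 fold change was 0.28 (SE 0.08, 95% interval 0.10 to 0.46), or a fold of 1.07 to 1.38 at the ends of the interval, with an unadjusted p of 0.00673 and an adjusted p of 0.257 by limma. Lamp2 did not pass the threshold in any of 18 alternative settings, and the smallest adjusted p was 0.0648, with the replicate number as a block. Its share of the Lamp1 and Lamp2 TPM was 13.5% ± 0.60 after PBS and 16.1% ± 0.03 after DT (SD, n = 3 each). The summed markers of border-associated macrophages and of ependymal cells were also higher in each DT library than in each PBS library (59.6 CPM or less against 96.7 CPM or more, and 294 CPM or less against 321 CPM or more), and their part in the Lamp2 values was not tested.

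**Figure D5:**
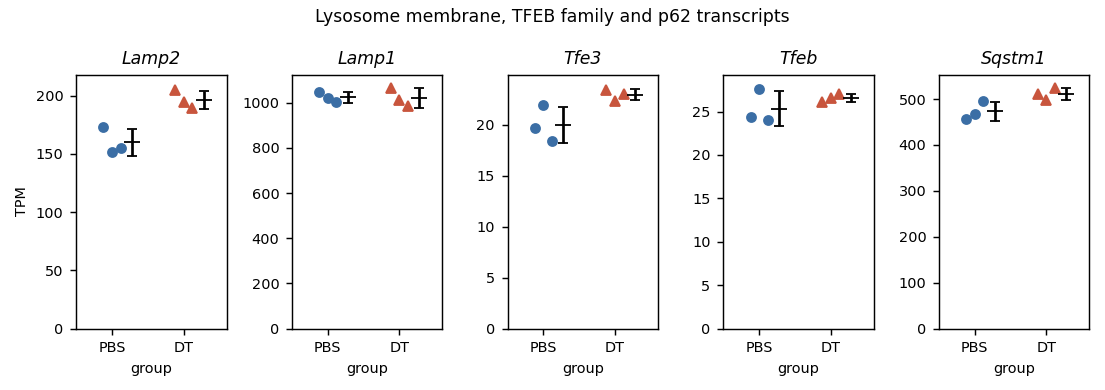
TPM of Lamp2, Lamp1, Tfe3, Tfeb and Sqstm1 in each library, with PBS libraries as circles, DT libraries as triangles and the bars beside them giving the mean ± SD (n = 3). Lamp2 is at 152 to 173 TPM after PBS and 189.5 to 205 TPM after DT without overlap, while the Lamp1 and Tfeb groups overlap.

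Rab5a, the GTPase of early endosomes, had a fitted log2 value of -0.05 (adjusted p = 0.833). Rab7, the GTPase that takes late endosomes and autophagosomes to fusion with lysosomes (chr6:87999106-88045270, minus strand, mm10), was at 179.2, 159 and 176 CPM in the PBS libraries and at 174.5, 88.7 and 91.4 CPM in the DT libraries. The first DT library was within the PBS range, and DT replicates 2 and 3 were at a clearly lower level, so that the values lay at 2 levels rather than around a group mean. Rab7 had a log2 fold change of -0.61 (SE 0.23, 95% interval -1.12 to -0.09, unadjusted p = 0.0268, adjusted p = 0.408). Without the first DT library it passed the threshold, at -0.92 (adjusted p = 0.00318), and without any other library it did not. Among 8722 rows with a mean of at least 15 CPM, the same division, with DT replicates 2 and 3 each at least 1.6-fold below each of the other 4, was found for 3 rows, Rab7, Slc25a44 and Zkscan17. That search was made after the Rab7 values had been seen, and the cause of the division was not tested.

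The other genes of the pathway were taken from 3 lists of further autophagy genes, genes of nutrient sensing and transcription, and genes of acidification and lysosomal ion channels. Of 78 genes, 76 passed the minimum, and 0 of 76 were called, where 0.713% of all genes tested were. Intervals within 1.5-fold were found for 71, against 66.6% of all genes. Fitted values were above 0 for 33 and below 0 for 43, where 51.3% of all genes were below. The median log2 fold changes of the lists were -0.03, 0.01 and 0.00, respectively. Unadjusted p-values below 0.05 were found for 2 lower and 0 higher genes by limma, where 4.51% of all genes were lower and 5.91% higher at that level, and the adjusted threshold was passed by 0 with each other tool run. These were Tecpr1, which tethers autophagosomes to lysosomes, at 52.9 TPM after PBS and 47.2 TPM after DT on average (log2 fold change -0.18, SE 0.06, adjusted p = 0.369), and Foxo3, a transcription factor acting on autophagy genes, at 69.5 and 60.3 TPM (-0.22, SE 0.08, adjusted p = 0.382). Next in order of p were Rragd, a GTPase that recruits mTORC1 to lysosomes (0.21, adjusted p = 0.521), Vmp1, a scramblase of the endoplasmic reticulum (0.14, adjusted p = 0.527), and Trp53inp1, a stress protein that binds LC3 (-0.19, adjusted p = 0.580).

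The members also varied little among libraries. Leaving aside both Atp6v0c rows, the SD of log2 levels within groups ranged from 0.021 to 0.42 with a median of 0.078, and 45 of 56 members lay under the median of all genes, 0.15. This comparison was not matched for level: the median member was at 65.0 TPM after PBS and the median gene tested at 22.1 TPM. The median SD of the other pathway genes was 0.099. The most variable of the 56 was Atg4a, with 56 to 106 reads per library. By contrast, 0.324% of all genes had a larger SD than Atp6v0c. With 3 libraries a group, an exact permutation test of a single gene cannot give a two-sided p under 0.1, and the p-values here rest on the variance shared across genes by limma.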

How the data were processed

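Strand-specific RNA-seq libraries were made from total RNA of MACS-isolated astrocytes in 3 PBS and 3 DT pools. The authors used Trim Galore 0.5.0, HISAT2 2.1.0 (mm10), BEDTools 2.25.0 to remove ribosomal reads, StringTie 1.3.5 and edgeR 3.24.3. The deposited signal is CPM on library sizes scaled by TMM factors of 0.974 to 1.02, and whole reads were recovered from its steps for 100% of values, within 0.001 CPM. The deposited TPM gave levels between genes. The authors' p-value, q-value and log2 fold change columns, which hold their own comparison, were not used.

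Log2(CPM + 0.1) values at a mean CPM of at least 0.5 were fitted with limma 3.58.1 in R 4.3.3 (variance trend, two-sided, Benjamini-Hochberg over all genes tested). The script was tested on simulated data. Fold changes on this scale understate those of genes with few reads. The members, the lists and the rule for naming were chosen with earlier results of these data known. Named were members past the threshold, the 10 with the smallest p, the most abundant of each role, a core of 12 genes, the isoforms, members under the minimum, and the 5 other pathway genes with the smallest p. Alternatives were pseudocounts of 0.5 and 1, no minimum and a minimum of 2 CPM, quantile normalization, TPM in place of CPM, a fit with no trend of the variance, a replicate block, 1 library left out at a time, edgeR 4.0.16 (quasi-likelihood and exact) and DESeq2 1.42.0 on recovered reads, and both Atp6v0c rows summed. Coordinates of genes are those of GENCODE M21, and promoter windows follow RefSeq starts.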

Additional observations from a re-analysis of the deposited data

How the results depend on the processing

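The count of members past the threshold was 0 in each direction in the main setting and in all 12 alternatives that kept the 6 libraries, the summed Atp6v0c rows, chosen after seeing the data, included. Leaving out 1 library gave 0 to 1 members higher (Atp6v0c, at 3.91, without PBS replicate 2) and 0 to 1 lower (Rab7, at -0.92, without DT replicate 1). Over all genes, the count of genes higher and lower was 84 and 24 by limma, 227 and 98 by DESeq2, 189 and 72 by the edgeR exact test, 35 and 11 without a variance trend, 70 and 16 with TPM, and 39 to 72 and 9 to 20 with 1 library left out. In these leave-one-out fits the median log2 fold change ranged from -0.059 to -0.012 for the members, from -0.069 to -0.015 for other autophagy genes, from -0.013 to 0.0053 for nutrient sensing and from -0.022 to 0.030 for acidification.

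The deviations of same-numbered libraries from their group means had correlations of 0.115, 0.0105 and 0.118, and differently numbered libraries were not compared. Whether the numbers pair the samples was therefore not settled, and the main fit did not pair them. With the replicate block, 0 members were called and 79 genes were higher and 30 lower over all.

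Some fold changes near 0 changed sign, and those of genes named with each library's value are given here. With TPM, Atg3 was at 0.0068, Atp6v1e1 at 0.0094 and Ulk2 at 0.0023. With quantile normalization, Atp6ap1 was at 0.0010, Atp6v1e1 at 0.019 and Ulk2 at 0.0046. With 1 library left out, the values ranged from -0.035 to 0.039 for Atg3, -0.16 to 0.069 for Atg9a, -0.084 to 0.033 for Atp6ap1, -0.18 to 0.081 for Atp6v0e, -0.076 to 0.019 for Atp6v1a, -0.011 to 0.050 for Atp6v1b2, -0.035 to 0.052 for Atp6v1e1, -0.033 to 0.12 for Becn1, -0.064 to 0.015 for Lamp1, -0.018 to 0.079 for Map1lc3b and -0.040 to 0.016 for Ulk2. Of the 39 members below 0 in the main setting 22 stayed below 0 in every alternative that tested them, and of the 19 above 0, 10 stayed above. The cause was not tested, and the signs of the genes that changed are those of the main setting alone. Atg9b had 20 to 49 reads per library and Atg4a 56 to 106, and the 6 members under the minimum have no fitted value in the main setting.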
